A study of Mus musculus with 24 samples.

Results

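RNA of genes whose products restrain cell division was measured near the entry into S phase in mouse vascular smooth muscle cells. The 8 genes are the Cip/Kip inhibitors Cdkn1b and Cdkn1c, the INK4 inhibitors Cdkn2c and Cdkn2d, and the antiproliferative genes Btg1, Btg2, Tob1 and Gas1, of 16593 named genes on the array. All 8 were found by their symbol in the annotation of the array platform, and 14 of its 25697 probes carry 1 of them. Of these 14 probes 8 passed the filter on detection, and these 8 belong to 5 of the genes. The remaining genes, Cdkn1c, Btg2 and Gas1, have 1 probe each, which was detected on 0 of 24 arrays.

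The RNA came from primary smooth muscle cells of the carotid artery of male mice on the C57bl6 background, measured on 24 Illumina bead arrays in 5 groups. Wild-type and PMCA4 knockout cells had 5 arrays each. Knockout cells that had received DNA by electroporation made up the other groups, with PMCA4b on 5 arrays, vector A on 5 and vector B on 4. All groups, wild type included, were serum synchronized, then given serum and PDGF-BB, and were collected in late G1/S. PMCA4 is a calcium exporter of the plasma membrane and PMCA4b is a splice variant of it. The PMCA4b and vector cells carry the same deletion as the knockout cells. The promoter of the PMCA4b DNA, the share of cells that took up DNA, the difference between the vectors and the number of animals are not recorded in the labels. Nor do the labels say whether replicates were separate cultures or animals, so a p-value here reflects only how far these samples spread, and that spread may be technical.

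Progress from G1 into S phase is driven by cyclin-dependent kinases, first CDK4 and CDK6 with D-type cyclins and then CDK2 with cyclin E. INK4 proteins bind CDK4 and CDK6 and keep D-type cyclins off them, whereas Cip/Kip proteins bind whole cyclin and kinase complexes. BTG and TOB proteins are not kinase inhibitors. They bind subunits of the CCR4-NOT deadenylase, and quiescent or differentiating cells often express them. In arterial smooth muscle, p27, the product of Cdkn1b, is known as a brake on growth after injury, and its protein level is set largely by degradation, which an RNA array does not measure.

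The members above background did not share a single pattern over the groups. Cdkn2c and Tob1 were highest in both vector groups, whereas Cdkn2d and the brightest Btg1 probe had their highest means in PMCA4b cells. The proximal promoters of these 4 genes are shown for that contrast, as RefSeq windows of build GRCm38.p6 from 250 bases before to 50 bases after a transcript start, 5′ to 3′ on the gene's strand. They are chr4:109666707-109667006 on the minus strand for Cdkn2c, the first of its windows, and chr11:94211204-94211503 on the plus strand for Tob1. Those of the other pair are chr9:21291160-21291459 on the minus strand for Cdkn2d and chr10:96616751-96617050 on the plus strand for Btg1. Capitals mark matches, on either strand, to TTCCCGC or TTTGGCGC (letters of E2F sites), TGTTTAC (FOXO) or CCAAT (NF-Y).
Cdkn2c: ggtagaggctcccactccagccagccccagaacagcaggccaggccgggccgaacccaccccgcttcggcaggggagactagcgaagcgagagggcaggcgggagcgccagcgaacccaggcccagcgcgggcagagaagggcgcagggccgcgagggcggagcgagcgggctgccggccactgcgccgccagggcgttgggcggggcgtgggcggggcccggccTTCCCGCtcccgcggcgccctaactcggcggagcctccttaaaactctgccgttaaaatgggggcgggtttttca
Tob1: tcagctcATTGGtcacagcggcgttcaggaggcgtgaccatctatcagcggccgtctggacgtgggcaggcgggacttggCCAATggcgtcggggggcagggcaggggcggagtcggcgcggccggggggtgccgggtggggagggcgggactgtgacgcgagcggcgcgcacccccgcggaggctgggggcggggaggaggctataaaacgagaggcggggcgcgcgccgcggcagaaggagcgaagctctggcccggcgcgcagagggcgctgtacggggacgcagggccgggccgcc
Cdkn2d: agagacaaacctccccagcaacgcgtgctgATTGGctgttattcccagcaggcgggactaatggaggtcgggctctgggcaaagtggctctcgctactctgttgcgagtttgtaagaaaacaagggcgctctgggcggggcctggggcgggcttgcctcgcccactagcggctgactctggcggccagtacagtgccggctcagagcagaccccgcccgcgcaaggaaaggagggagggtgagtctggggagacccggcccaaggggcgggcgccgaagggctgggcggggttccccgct
Btg1: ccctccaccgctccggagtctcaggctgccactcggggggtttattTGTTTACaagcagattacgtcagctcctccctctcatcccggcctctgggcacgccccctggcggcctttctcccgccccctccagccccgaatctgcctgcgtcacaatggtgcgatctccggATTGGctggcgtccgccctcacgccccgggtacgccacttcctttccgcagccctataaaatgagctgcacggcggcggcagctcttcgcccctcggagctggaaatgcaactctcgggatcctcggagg

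The Cdkn2c window holds the only E2F match among the windows of these 4 genes, a TTCCCGC that 4.6% of all 32851 mouse windows also hold. The Btg1 window holds TGTTTAC, present in 3.65% of all windows, and a CCAAT on the reverse strand. A CCAAT match, the commonest of these at 37.4% of windows, also lies in the Cdkn2d window and on both strands in the Tob1 window. TTTGGCGC is in 0.514% of windows and in none of these 4. The windows shown for Cdkn2c and Tob1 had no motif in common, but the second Cdkn2c window, not printed, holds a CCAAT as the Tob1 window does. The windows of Cdkn2d and Btg1 both hold CCAAT. The motifs were chosen after the levels were known, and a match describes letters in a window, not binding.

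Levels are given as normalized log2 intensities, and the detection limit, the lowest signal among detected probes of an array, lay between 6.16 and 6.57. Between 9496 and 10406 probes were detected per array, and precision is limited by the number of arrays. The targeted gene Atp2b4 has 1 probe above background, which averaged 6.81 in wild-type and 6.84 in knockout cells (log2 difference 0.03, limma adjusted p = 0.881), and where that probe lies relative to the deletion is not recorded. The same probe averaged 6.73 with PMCA4b, 6.68 with vector A and 6.72 with vector B, and PMCA4b against the vector average did not pass the test (log2 difference 0.03, limma adjusted p = 0.880). Groups are therefore called by their labels, and these data show neither the absence of PMCA4 nor its return. Of the 7 contractile smooth muscle markers, Myh11, Cnn1, Des and Lmod1 were undetected in every group and Tagln also in both vector groups. The summed linear signal of the contractile list lay at 23800 to 28200 in wild type, 65100 to 68900 in knockout, 32500 to 38900 with PMCA4b, 15400 to 16500 with vector A and 15400 to 16200 with vector B. The summed signal of the 7 fibroblast markers lay at 4600 to 5560, 36400 to 40200, 11100 to 12800, 14100 to 15100 and 15800 to 17100 in the same order, with Lum undetected throughout. All 6 endothelial markers were undetected in every group, as were the adipocyte markers Adipoq, Plin1, Fabp4 and Cidec and the leukocyte markers Ptprc, Lyz2 and Itgam. The remaining adipocyte marker, Pparg, which encodes a nuclear receptor, averaged 7.0 in wild type, 8.36 in knockout, 6.35 with PMCA4b (2 of 5 arrays detected), 11.02 with vector A and 10.35 with vector B. Like Cdkn2c and Tob1 it was highest in both vector groups, and the summed adipocyte signal lay at 165 to 181 in wild type, 108 to 161 with PMCA4b, 1970 to 2230 with vector A and 1310 to 1410 with vector B. All knockout arrays lay between wild type and vector B in that sum, from 362 upward. Pparg was the only adipocyte marker detected, so this sum does not stand apart from Pparg itself. The remaining leukocyte marker on the array, Cd14, averaged 8.12, 6.85, 8.60, 8.48 and 8.99 in the same order, and the summed leukocyte signal lay at 135 to 604 over all arrays. Of 3 Schwann, epithelial and skeletal muscle markers on the array, Cdh1 was detected on all arrays of both vector groups. It was detected on 0 arrays of wild type, knockout and PMCA4b, and Myod1 was undetected throughout. The part of these marker shifts in the results below was not tested. In bulk RNA, fewer cells that express a gene and less of its RNA per cell cannot be told apart.

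Cdkn1b (gene ID 12576, chr6:134920401-134925525) encodes p27, the Cip/Kip inhibitor of cyclin E with CDK2. Its one kept probe, ILMN_2638428, was detected on 22 of 24 arrays, whereas the brightest probes of the other measured genes were detected on all 24. Cdkn1b read 7.60, 7.55, 7.67, 7.67 and 7.59 in wild type and 6.85, 6.86, 6.94, 6.86 and 7.04 in knockout cells. Every knockout array lay below every wild-type array, 1.63-fold lower (log2 difference -0.71, SE 0.116, limma adjusted p = 1.53e-05). With PMCA4b Cdkn1b read 6.13, 7.08, 6.28, 6.83 and 6.60, and replicates 1 and 3 were undetected. It read 6.73, 6.80, 6.98, 7.01 and 6.76 with vector A and 7.22, 7.29, 7.29 and 7.23 with vector B. The spread with PMCA4b (6.58 ± 0.390, SD, n = 5) was the widest of the groups and overlapped both knockout and vector A.

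In order, Cdkn1b was highest in wild type (7.62 ± 0.0531, SD, n = 5), then vector B (7.26 ± 0.0403, SD, n = 4), knockout (6.91 ± 0.0809, SD, n = 5), vector A (6.86 ± 0.130, SD, n = 5) and PMCA4b. Wild type differed from vector B (adjusted p = 0.0121, limma) and vector B from knockout (adjusted p = 0.0161, limma). Knockout and vector A did not differ beyond their spread (log2 difference -0.05, 95% interval -0.29 to 0.19). PMCA4b was below vector A by at least 1.10-fold (limma adjusted p = 0.0339), but this call rested on single arrays. It was lost without PMCA4b replicate 1 (log2 difference -0.16, adjusted p = 0.153) or 3 (-0.20, 0.121) and without vector A replicate 3 (-0.24, 0.0781) or 4 (-0.24, 0.0843), in limma fits. PMCA4b was also at least 1.14-fold below knockout (limma adjusted p = 0.0151), and this too was lost without PMCA4b replicate 1 (adjusted p = 0.0684) or 3 (0.0587). Against wild type the Cdkn1b level with PMCA4b was at least 1.86-fold lower (limma adjusted p = 3.07e-08). The second Cdkn1b probe was detected on 1 array, of the wild type, and the third on 0 of 24.

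Cdkn1c (gene ID 12577, chr7:143458339-143461059) encodes p57, the imprinted Cip/Kip inhibitor. Its single probe stayed below the detection limit on all arrays, between 5.27 and 5.80 in wild type, 4.96 and 5.17 in knockout, 4.69 and 5.20 with PMCA4b, 4.86 and 5.02 with vector A, and 4.79 and 4.91 with vector B. The wild-type arrays were the brightest, but a signal not above background gives only an upper bound, so no fold is given.

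**Figure D1:**
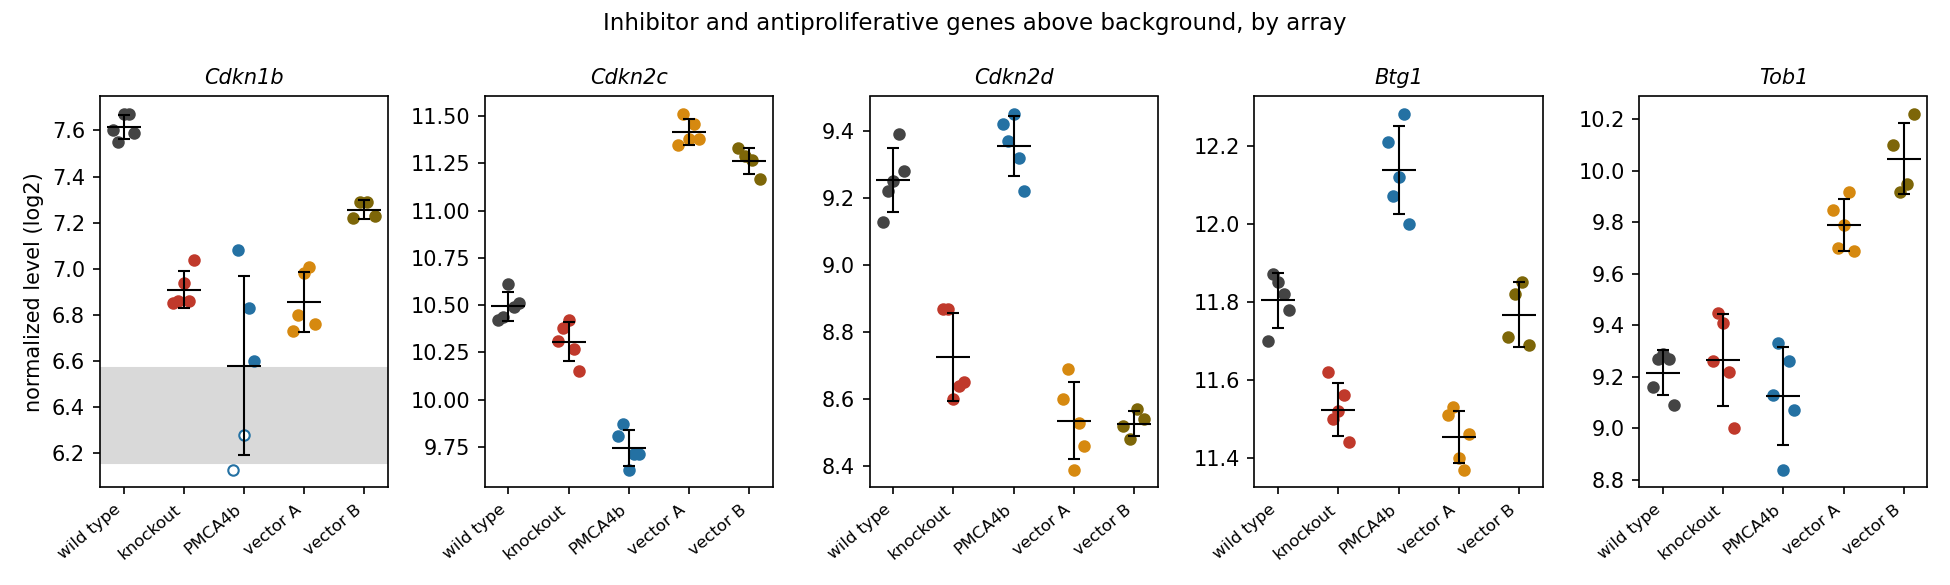
Normalized log2 level (vertical axes, a separate range for each gene) of the 5 genes above background on each of 24 arrays in the 5 groups; points are arrays, open points are undetected, black bars are the mean ± SD, and the grey band is the range of the detection limit. Cdkn1b is undetected on 2 PMCA4b arrays, at 6.13 and 6.28, Cdkn2c and Tob1 are highest in both vector groups, and Cdkn2d has its highest levels in wild-type and PMCA4b cells.

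Cdkn2c (gene ID 12580, chr4:109660876-109666756) encodes p18, an INK4 inhibitor of CDK4 and CDK6. Its brighter probe, ILMN_1228366, read 11.35, 11.51, 11.38, 11.46 and 11.38 with vector A and 11.33, 11.29, 11.27 and 11.17 with vector B. Wild-type arrays read 10.42, 10.44, 10.61, 10.49 and 10.51, and knockout arrays 10.31, 10.38, 10.42, 10.27 and 10.15. With PMCA4b it read 9.81, 9.87, 9.63, 9.71 and 9.71. The PMCA4b arrays lay below all others and the vector arrays above all others, and wild type and knockout met at 10.42.

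All neighbours in the order of Cdkn2c differed. Vector A was above vector B by 0.15 (limma adjusted p = 0.0342), vector B above wild type by 0.77 (4.66e-11), wild type above knockout by 0.19 (0.00671) and knockout above PMCA4b by 0.56 (5.26e-09). The step between the vectors was lost without vector A replicate 2 (limma adjusted p = 0.0883) or 4 (0.0687) and without vector B replicate 3 (0.0591) or 4 (0.123). Cdkn2c had the widest span of group means among the 5 genes, 1.67 on the log2 scale, and 85.4% of the 7675 genes tested spanned no more. The second, dimmer probe averaged 7.15 in wild type, 6.75 in knockout, 6.57 with PMCA4b, 8.35 with vector A and 8.17 with vector B, in the same order. On that probe knockout and PMCA4b (log2 difference -0.18, limma p adjusted over all kept probes = 0.130) and the vectors (-0.18, 0.183) did not differ beyond their spread.

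Cdkn2d (gene ID 12581, chr9:21288459-21291421) encodes p19, another INK4 inhibitor of CDK4 and CDK6. It read 9.13, 9.22, 9.25, 9.39 and 9.28 in wild type and 8.87, 8.87, 8.60, 8.64 and 8.65 in knockout cells. With PMCA4b Cdkn2d read 9.42, 9.37, 9.45, 9.32 and 9.22. It was lowest with vector A (8.60, 8.69, 8.39, 8.53 and 8.46) and vector B (8.52, 8.48, 8.57 and 8.54). Wild type and PMCA4b overlapped and lay above all other arrays, and knockout overlapped vector A.

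Cdkn2d in PMCA4b cells (9.36 ± 0.0902, SD, n = 5) and wild type (9.25 ± 0.0954, SD, n = 5) did not differ beyond the spread (log2 difference 0.10, 95% interval -0.03 to 0.24, limma adjusted p = 0.170). Knockout cells lay 0.53 below wild type (SE 0.0655, limma adjusted p = 2.83e-07, 1.44-fold). Vector A was 0.19 below knockout (limma adjusted p = 0.0118), but not with the set of deposited columns in the model (log2 difference -0.13, limma adjusted p = 0.178), and the vectors differed by -0.01 (95% interval -0.15 to 0.14, vector B minus vector A). Cdkn2c and Cdkn2d, which encode inhibitors of the same kinases, thus lay at opposite ends in vector and PMCA4b cells. Against the vector average, PMCA4b cells had 3.02-fold less Cdkn2c (log2 difference -1.59, SE 0.0498, limma adjusted p = 8.52e-19). In the same comparison they had 1.77-fold more Cdkn2d (0.82, SE 0.0579, limma adjusted p = 4.54e-12).

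Btg1 (gene ID 12226, chr10:96617001-96622813) encodes an antiproliferative protein that binds the CCR4-NOT deadenylase and the methyltransferase PRMT1. Its brightest probe, ILMN_2866185, read 12.21, 12.07, 12.12, 12.28 and 12.00 with PMCA4b, above all other arrays. Wild-type arrays read 11.70, 11.87, 11.85, 11.82 and 11.78, and vector B arrays 11.71, 11.82, 11.85 and 11.69. Knockout arrays read 11.62, 11.50, 11.52, 11.56 and 11.44, and vector A arrays 11.51, 11.53, 11.40, 11.37 and 11.46. The groups thus formed 3 levels, with wild type beside vector B and knockout beside vector A. Neither wild type and vector B (log2 difference -0.04, 95% interval -0.16 to 0.09) nor vector A and knockout (-0.07, 95% interval -0.19 to 0.04) differed beyond their spread, whereas PMCA4b exceeded wild type by 0.33 (limma adjusted p = 1.18e-05).

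The 3 kept Btg1 probes did not give the same order. Probe ILMN_2866189 averaged 11.5 in wild type, 11.4 in knockout, 11.8 with PMCA4b, 11.5 with vector A and 11.9 with vector B, so that vector B and not PMCA4b was its highest group. On this probe PMCA4b did not differ from the vector average (log2 difference 0.11, limma p adjusted over all kept probes = 0.0521) or from vector B (-0.08, 0.256). The third probe, ILMN_2705119, averaged 10.7, 10.4, 11.1, 10.2 and 10.7 in the same order of groups and was highest with PMCA4b, as was the brightest. Vector A against knockout was called in opposite directions, higher by 0.14 on ILMN_2866189 (limma adjusted p = 0.0281) and lower by 0.22 on ILMN_2705119 (log2 difference -0.22, limma adjusted p = 0.0258). Knockout was below wild type, and PMCA4b above knockout and above wild type, on all 3 probes. The fourth probe was detected on 0 of 24 arrays.

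**Figure D2:**
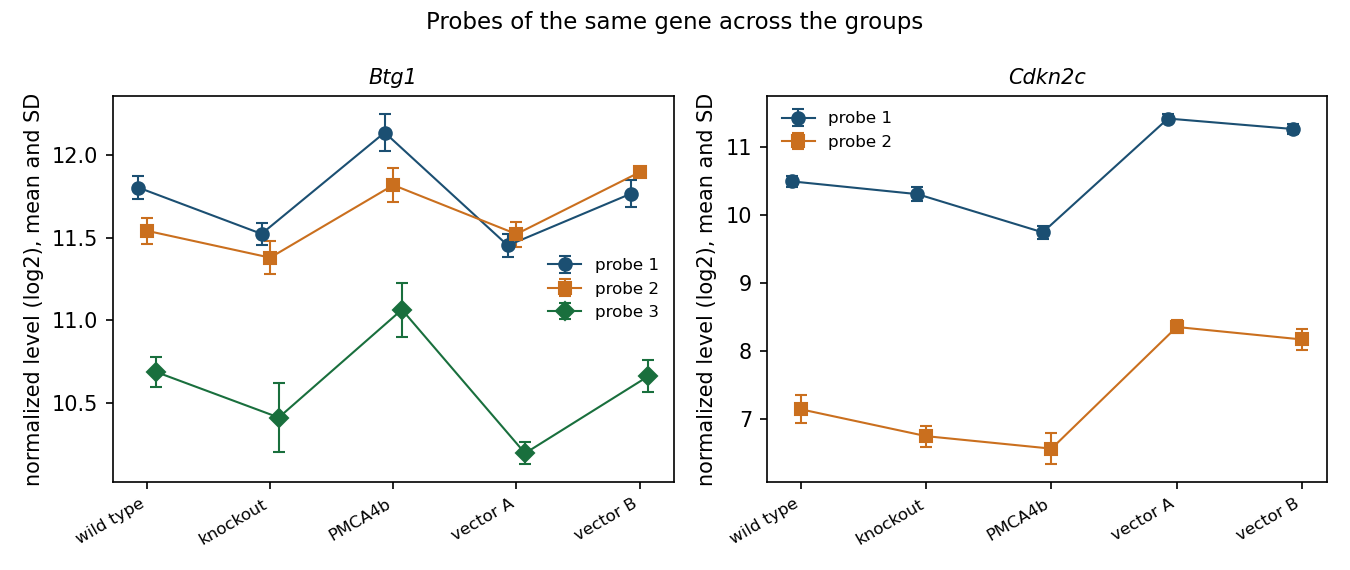
Mean normalized log2 level ± SD (vertical axes) of each kept probe of Btg1 (left) and Cdkn2c (right) in the 5 groups; lines only join the means of 1 probe. The Cdkn2c probes keep 1 order of groups, whereas Btg1 probe 2 is highest with vector B (11.9) and probes 1 and 3 are highest with PMCA4b (12.1 and 11.1).

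Tob1 (gene ID 22057, chr11:94209842-94215495) encodes a related antiproliferative protein that also recruits the deadenylase. It read 10.10, 9.92, 9.95 and 10.22 with vector B and 9.85, 9.70, 9.79, 9.92 and 9.69 with vector A. Wild-type arrays read 9.16, 9.27, 9.29, 9.27 and 9.09, knockout arrays 9.26, 9.45, 9.41, 9.22 and 9.0, and PMCA4b arrays 9.13, 9.33, 8.84, 9.26 and 9.07. The vector arrays lay above all others, while wild type, knockout and PMCA4b overlapped.

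Neither Tob1 in knockout and wild type (log2 difference 0.05, 95% interval -0.13 to 0.23, limma adjusted p = 0.656) nor in wild type and PMCA4b (-0.09, 95% interval -0.27 to 0.09, limma adjusted p = 0.374) differed beyond the spread. Vector A exceeded knockout by 0.52 (limma adjusted p = 1.24e-05) and vector B exceeded vector A by 0.26 (limma adjusted p = 0.0247). The last call was lost without vector A replicate 2 (adjusted p = 0.0561) or 5 (0.0577), and without vector B replicate 1 (0.0604) or 4 (0.103), in limma fits. PMCA4b and knockout, which did not differ with all arrays (log2 difference -0.14, limma adjusted p = 0.166), passed the threshold without knockout replicate 5 (-0.21, limma adjusted p = 0.0367).

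Btg2 (gene ID 12227, chr1:134074865-134079155), an immediate early and p53-induced relative of Btg1, was not above background on any array. Its probe lay between 4.62 and 5.12 over all groups. Gas1 (gene ID 14451, chr13:60174405-60177535) encodes a membrane protein of growth-arrested cells and a co-receptor for Hedgehog ligands. The Gas1 probe lay between 4.54 and 5.07, also below the limit in all groups. RNA of these genes below the detection limit cannot be told from none.

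**Figure D3:**
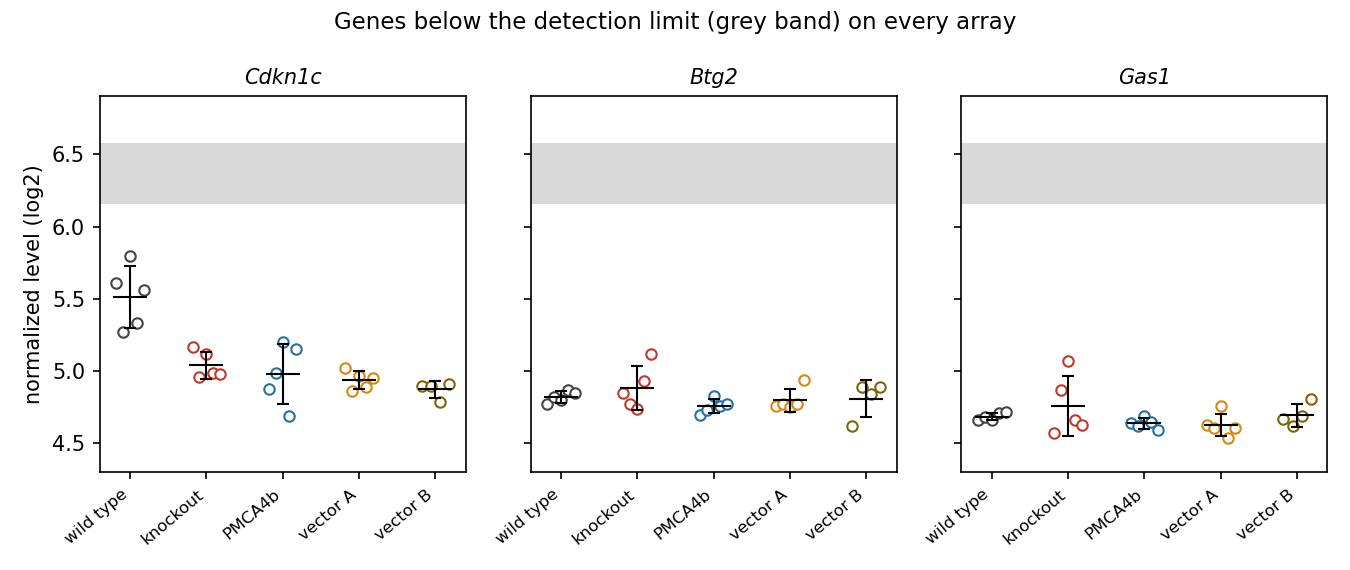
Normalized log2 level (vertical axis, shared) of Cdkn1c, Btg2 and Gas1 on each of 24 arrays in the 5 groups; open points are undetected arrays, bars are the mean ± SD, and the grey band is the range of the detection limit, 6.16 to 6.57. All points lie below the band, with the Cdkn1c points of wild type closest to it at 5.27 to 5.80.

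Knockout against wild type asks how RNA differs between the cells labelled PMCA4 knockout and wild type. Of the 5 genes measured, Cdkn1b, Cdkn2c, Cdkn2d and Btg1 were lower in knockout cells and none was higher, where 57.7% of all genes tested were called and 31.1% were called lower. The groups did not overlap for Cdkn1b, Cdkn2d and Btg1 (3 of 5, against 39.6% of all genes). The Btg1 difference was -0.28 (SE 0.0556, limma adjusted p = 0.00015, 1.21-fold lower). In size, 88.3% of genes differed no more than Cdkn1b and 80.9% no more than Cdkn2d, whereas 41.9% differed no more than Cdkn2c. Tested against a 1.2-fold change, 2 of the 5 genes were still called, Cdkn1b and Cdkn2d, as were 23.3% of all genes.

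PMCA4b against vector asks what PMCA4b DNA changes beyond vector DNA in electroporated knockout cells. Against the average of both vectors, Cdkn2d and Btg1 were higher and Cdkn1b, Cdkn2c and Tob1 lower with PMCA4b, all 5 called, where 78.8% of all genes were called, 38.3% higher and 40.5% lower. The arrays did not overlap for 4 of the 5, all but Cdkn1b, against 51.3% of genes. Tob1 was 1.73-fold lower (log2 difference -0.79, SE 0.0784, limma adjusted p = 2.32e-09) and the brightest Btg1 probe 1.44-fold higher (0.53, SE 0.0492, limma adjusted p = 8.26e-10). Cdkn1b was at least 1.26-fold lower (limma adjusted p = 0.000199). In size, 94.3% of all genes differed no more than Cdkn2c did, against 54.1% to 76.5% for the other 4 genes.

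Set against each vector alone, all 5 genes kept these directions on their brightest probe and were called, where 78.8% of genes were called against vector A and 72.2% against vector B. Btg1 probe ILMN_2866189 did not differ from vector B (-0.08, limma p adjusted over all kept probes = 0.256). Tested against a 1.2-fold change, 4 of 5 were called against each vector, where 55.3% and 44.3% of genes were called. Cdkn2d differed alike from both (0.82 from vector A and 0.83 from vector B). The brightest Btg1 probe differed by 0.68 from vector A and 0.37 from vector B. Cdkn2c differed by -1.67 and -1.52 and Tob1 by -0.66 and -0.92 in the same order. Between the vectors themselves 4 of 5 genes were called, Cdkn1b, Btg1 and Tob1 higher and Cdkn2c lower with vector B, where 53.4% of all genes were called. With vector B, Cdkn1b was 1.32-fold higher (log2 difference 0.40, limma adjusted p = 0.00887) and Btg1 1.24-fold higher (0.31, limma adjusted p = 0.000103). This count fell to 2 of 5 without vector A replicate 2 (3885 of all 7675 genes called) and without vector B replicate 4 (3757 called). It fell to 0 of 5 when tested against a 1.2-fold change, where 17.2% of all genes were called.

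The deposited columns run in 3 sets of 8 arrays, and the labels do not say whether a set is a chip. Vector A lies wholly in the third set and vector B in the first and second, so the difference between the vectors cannot be told apart from the set without the other groups. Sets 1 and 2 each hold 2 arrays of wild type, knockout, PMCA4b and vector B. Set 3 holds 5 arrays of vector A and only 1 each of wild type, knockout and PMCA4b. Its values below thus rest on single arrays of those groups. Within sets, knockout against wild type gave -0.72, -0.77 and -0.56 for Cdkn1b in sets 1 to 3 and -0.30, -0.70 and -0.63 for Cdkn2d. PMCA4b against vector B gave -1.47 and -1.55 for Cdkn2c in sets 1 and 2, and PMCA4b against vector A gave -1.71 in set 3. With the set in the model, Tob1 no longer differed between the vectors (log2 difference 0.07, limma adjusted p = 0.684), and Cdkn1b no longer between PMCA4b and vector A (-0.24, limma adjusted p = 0.176).

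**Figure D4:**
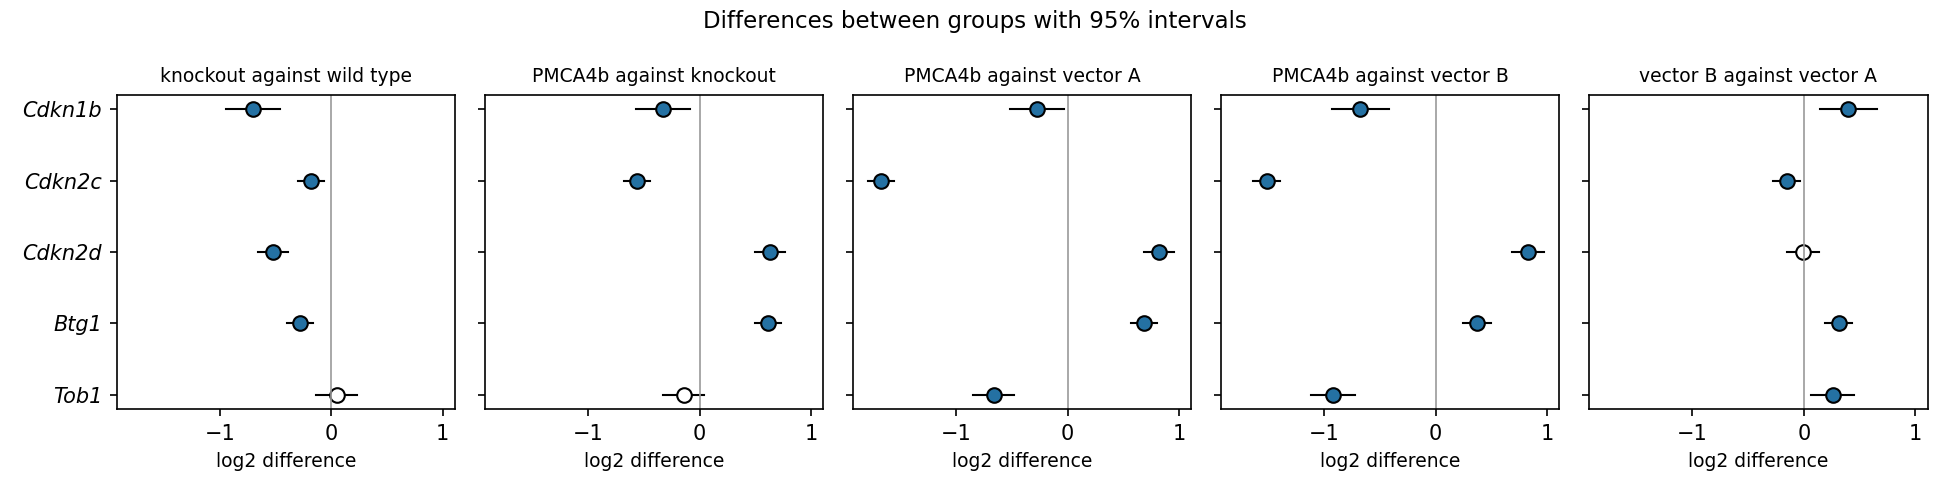
Log2 difference with its 95% interval (horizontal axis, the same in all panels) for the 5 measured genes (rows) in 5 comparisons (panels), from the limma fit; filled points were called at an adjusted p under 0.05 and open points were not. Cdkn1b, Cdkn2c, Cdkn2d and Btg1 lie below 0 in knockout against wild type, and with PMCA4b Cdkn2d and Btg1 lie above 0 against knockout and both vectors.

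Comparisons with the untreated knockout show where vector and PMCA4b cells each stood; they share the knockout arrays with the comparison to wild type. Cdkn2c was 2.05-fold and Tob1 1.57-fold higher in the vector average than in knockout, and Cdkn2d 1.14-fold lower, 3 of 5 called where 74.4% of genes were called. Btg1, on its brightest probe, and Cdkn1b differed by 0.09 and 0.15 in that comparison, neither called. Btg1 probe ILMN_2866189 was called higher there (0.33, limma p adjusted over all kept probes = 3.13e-06). The average hides a difference between the vectors. Vector B alone exceeded knockout in Btg1 (0.24, limma adjusted p = 0.00089) and Cdkn1b (0.35, limma adjusted p = 0.0161). Vector A did not differ from knockout in either (-0.07 and -0.05). PMCA4b against knockout gave 4 of 5 called, where 69.3% of genes were called. Cdkn2d and Btg1 were 1.55-fold and 1.53-fold higher, Cdkn2c 1.48-fold lower, and Cdkn1b lower as given above. Cdkn2d and Btg1 were thus lower in knockout cells than in wild type and higher with PMCA4b than in knockout. For Btg1 this rise was not particular to PMCA4b, since vector B was also above knockout on all 3 kept probes. Vector B did not differ from wild type on the brightest probe or on ILMN_2705119. On ILMN_2866189 it exceeded wild type (log2 difference 0.35, limma p adjusted over all kept probes = 1.52e-05). With PMCA4b, Cdkn2d reached a level that did not differ from wild type beyond the spread, and Btg1 one above it. Cdkn1b and Cdkn2c were lower with PMCA4b than in both knockout and wild type. PMCA4b against wild type gave 3 of 5 called (Btg1 higher, Cdkn1b and Cdkn2c lower), where 69.1% of genes were called.

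Over the 5 genes, 13 of 20 neighbouring pairs in the order of group means differed, where 44.9% of such pairs over all genes did. With the set of 8 columns in the model 10 of 20 differed. Tested against a 1.2-fold change, without the set, 4 of 20 did. The share of pairs over all genes was not computed for these settings, so whether the falls are particular to the members was not tested. The vectors were each set against wild type and knockout for these orders. Vector A against knockout gave 3 of 5 genes called and vector B against knockout 5 of 5, where 75.1% and 67.2% of all genes were called. Vector A against wild type gave 5 of 5 and vector B against wild type 4 of 5, where 78% and 72.1% were called. The fitted spans of the group means were 1.03 for Cdkn1b (at least 1.86-fold as a bound, with 2 PMCA4b arrays undetected), 0.83 for Cdkn2d, 0.68 for Btg1 and 0.92 for Tob1, beside a median of 0.82 over all genes.

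Other genes of the same pathways were counted by lists. Of 9 further inhibitors and antiproliferative genes on the array 8 were measured, with 5 higher and 1 lower in knockout than in wild type. Thus 6 of 8 were called, against 57.7% of all genes, with a median log2 difference of 0.56, against -0.04 over all genes. Among the 5 higher is Gas2, detected on 5 of 5 knockout arrays, 1 wild-type array and 0 in the other groups. Gas2 passed the detection filter only through knockout, where it was high, so its place in this count and median is a description. With PMCA4b 3 were higher and 4 lower than the vector average. Here 7 of 8 were called, against 78.8% of all genes, with a median of -0.35, against -0.01 over all genes. Gas2 is again among the higher genes, but it was detected on 0 arrays of the PMCA4b and vector groups. Its signals there are not above background and give no level. The INK4 gene Cdkn2b, which encodes p15, fell below detection with PMCA4b, at least 6.94-fold under the vector average (limma adjusted p = 7.36e-27). Cdkn2a, which encodes p16 and ARF, was also undetected and at least 3.57-fold lower (limma adjusted p = 1.13e-16). Of the 4 INK4 genes, Cdkn2d was thus the one that was higher with PMCA4b. Gas6, a growth-arrest gene that encodes a ligand of receptor tyrosine kinases, was 4.58-fold lower with PMCA4b (limma adjusted p = 1.72e-18). It averaged 7.20 in wild type, 8.68 in knockout, 8.24 with PMCA4b, 10.42 with vector A and 10.45 with vector B.

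All 8 G1 cyclin and kinase genes on the array were measured. In knockout against wild type 4 were higher and 3 lower (median 0.23), where 57.7% of all genes were called. With PMCA4b against the vector average 6 were higher and 2 lower (median 0.60), where 78.8% of all genes were called. Ccnd2, cyclin D2, was 4.09-fold lower with PMCA4b (limma adjusted p = 2.65e-18), with the vector groups high. It averaged 10.61 in wild type, 11.62 in knockout, 10.85 with PMCA4b, 13.01 with vector A and 12.75 with vector B. Ccne2, cyclin E2, was 2.68-fold higher (limma adjusted p = 2.50e-13). Cdk6, a kinase that INK4 proteins bind, was detected on 5 of 5 PMCA4b arrays, 3 of 4 vector B arrays and 0 elsewhere. It reached the 4 arrays that the detection filter needs only through PMCA4b, the group where it was high. Its difference, at least 3.00-fold over the vector average, is therefore a description, as is its place among the 6 higher genes.

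Of 12 genes for p27 turnover and transcription on the array 7 were measured. In knockout against wild type 3 were higher and 0 lower (median 0.16). With PMCA4b 3 were higher and 1 lower than the vector average (median 0.16). These called counts, 3 of 7 and 4 of 7, lay below the shares of all genes called, 57.7% and 78.8%. The median with PMCA4b was 0.39 against vector A and -0.06 against vector B. Skp2, the F-box protein that marks p27 for degradation, was low in vector cells. It averaged 9.07 in wild type, 8.88 in knockout, 9.19 with PMCA4b, 6.91 with vector A and 7.96 with vector B. PMCA4b thus exceeded the vector average 3.37-fold (limma adjusted p = 1.56e-16). Ubac1, a subunit of the KPC ligase for p27, was 1.28-fold higher in the same comparison (limma adjusted p = 1.14e-05). Cops5, which exports p27 from the nucleus, was 1.31-fold higher in knockout than in wild type (limma adjusted p = 9.11e-05).

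Of 13 partner genes of the BTG and TOB proteins on the array 11 were measured. In knockout against wild type 1 was higher and 7 lower (median -0.16), where 57.7% of all genes were called and 31.1% were lower. With PMCA4b against the vector average 7 were higher and 2 lower (median 0.21), where 78.8% of all genes were called and 38.3% were higher. Against vector A 8 were higher and 2 lower (median 0.33), where 78.8% of all genes were called. Against vector B 4 were higher and 2 lower (median 0.09), where 72.2% were called. Prmt1, whose product binds BTG1, was 1.61-fold higher with PMCA4b than the vector average (limma adjusted p = 6.97e-12). Cnot10, a CCR4-NOT subunit, was 1.61-fold higher (limma adjusted p = 7.91e-12) and Pabpc4, a poly(A)-binding protein gene, 1.91-fold higher (limma adjusted p = 2.82e-11). Pabpc4 was low in vector cells. It averaged 9.51 in wild type, 9.73 in knockout, 9.78 with PMCA4b, 8.75 with vector A and 8.94 with vector B. Of 8 genes of Hedgehog reception on the array, the pathway in which Gas1 acts, 2 were measured. Smo was 1.60-fold lower with PMCA4b than with vector (limma adjusted p = 2.44e-10). Gli3 was detected on 4 of 5 wild-type arrays (mean 6.58, close to the detection limit) and on 0 in every other group. It passed the detection filter only through wild type, so no test of its lower level in knockout is given.

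For Cdkn1b and Cdkn2c, the 2 genes whose fitted group means spanned at least 1 on the log2 scale, the genes with the most similar profile were sought by the root mean square difference of the 5 centred group means. Nearest to Cdkn1b were Elovl6 (0.0887), Gchfr (0.0892) and Parp12 (0.0913). Nearest to Cdkn2c were Pcmtd2 (0.0540), Lrch1 (0.0567) and Il16 (0.0850). Lrch1, for example, averaged 8.13, 8.0, 7.40, 9.20 and 8.90 in wild type, knockout, PMCA4b, vector A and vector B, falling and rising with Cdkn2c. Pcmtd2 was detected on 7 of 24 arrays and averaged below the detection limit in wild type, knockout and PMCA4b (5.71, 5.62 and 5.00), and Parp12 was detected on 17 of 24, so their distances include values that are not levels. The other 4 genes were detected on all 24 arrays. These are descriptions over 5 groups of the same 24 arrays.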

How the data were processed

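RNA levels were measured on 24 Illumina bead arrays of biotin-labelled cRNA, grouped by the labels. In the deposited intensity file each probe has a single bead intensity on each array, already background-subtracted but not normalized (some values are negative), beside the authors' detection p-value. The authors' deposited log2 values served as an alternative. Their exact steps and the scanner software are not given in the sources that were used. No column of per-sample values was left unused (0 columns).

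Intensities were processed with neqc in limma 3.58.1 (R 4.3.3, data.table version 1.17.8), with the background inferred from detection p-values, an offset of 16 and quantile normalization. Probes detected (p under 0.01) on at least 4 of 24 arrays were kept, 11139 in all, 10504 of them with a gene name. The brightest kept probe stood for its gene (7675 genes). The linear model had 1 mean per group over all arrays (19 residual degrees of freedom), with moderated two-sided tests, Benjamini-Hochberg adjustment over all genes in each comparison and calls at an adjusted p under 0.05. Probe tests were adjusted over all kept probes. Where dim arrays were undetected, "at least" folds replaced dim values under an array's detection limit by that limit before the dim group was averaged. Symbols and gene IDs came from the platform annotation (23978 probes), 23962 of which matched a RefSeq gene table of GRCm38.p6 with 0 symbols changed; coordinates are from that table. Promoter windows were found for 7 of the 8 genes. Figures used Python 3.11.15, pandas 2.3.3, numpy 2.4.6 and matplotlib 3.10.9. The fit was tested on simulated data.

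The members, lists and comparisons were chosen with earlier results of these data known. Named besides the members were the genes with the smallest adjusted p (at most 3 a list) in knockout against wild type or PMCA4b against vector, the 3 most similar profiles of members spanning at least 1 on the log2 scale (clone names passed over), and Atp2b4. Alternatives covered the deposited log2 values, offset, scaling, detection filter, probe choice, samples in the fit, pooled vectors, array weights, the set of 8 columns, the replicate number, a 1.2-fold threshold and leaving out each array.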

Additional observations from a re-analysis of the deposited data

How the results depend on the processing

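Besides the alternatives that leave out an array, the counts of called members kept within 1.5 times their value in 107 of 110 cases, and single differences of members kept direction and call in 699 of 730 (24 lost the call, 3 gained it and 4 reversed). When each array was left out in turn these numbers were 214 of 216 and 1422 of 1440 (14 lost, 1 gained, 3 reversed). Tested against a 1.2-fold change, the called members fell to 2 for knockout against wild type and 0 for vector B against vector A, and the neighbouring pairs to 4. The same threshold cut the genes called from 4428 to 1785 for knockout against wild type, from 4099 to 1322 between the vectors, from 5708 to 3304 for the vector average against knockout, from 5317 to 2949 for PMCA4b against knockout, from 5301 to 2959 against wild type, from 6051 to 3955 against the vector average and from 5541 to 3397 against vector B. Leaving out an array moved the count between the vectors over a range of 2 to 4. Every reversed difference was one not called. Cdkn2d between the vectors turned to 0.00681 with scaling to the 75th percentile, 0.0135 with cyclic loess, and 0.00667, 0.0301 and 0.00679 without vector A replicate 1, vector A replicate 2 or vector B replicate 2 (leaving out an array gave -0.0437 to 0.0301). Btg1 in vector B against wild type turned to 0.0968 with the mean over kept probes, and Btg1 in vector A against knockout to 0.0128 with the set of columns as a block; the cause was not tested. Further calls changed. Cdkn1b in PMCA4b against vector A was lost with no filter on detection (adjusted p = 0.0617, more genes tested) and in a limma fit of the compared groups alone (0.125), as was Cdkn1b in PMCA4b against knockout in the latter (0.0796). Cdkn2c between the vectors was lost with no filter (adjusted p = 0.0703). Btg1 in the vector average against knockout passed with the mean over kept probes (0.14, limma adjusted p = 0.00673) and with the set as a block (0.12, adjusted p = 0.0357), and Cdkn1b there in a fit of the compared groups alone (adjusted p = 0.0241). In tests of no difference the limma adjusted p ranged from 0.000749 to 0.176 for Cdkn1b in PMCA4b against vector A. It ranged from 0.000284 to 0.0796 for Cdkn1b in PMCA4b against knockout. Between the vectors it ranged from 0.0154 to 0.123 for Cdkn2c and from 0.0127 to 0.684 for Tob1. The test against a 1.2-fold change gave 0.649 and 0.550 for the Cdkn1b differences and called neither difference between the vectors. With the replicate number as a block the counts were 4, 5, 5, 5, 4, 3, 4 and 3 for the 8 comparisons and 13 for the neighbouring pairs (10 with the set as a block), and no call of a member changed. In the same 8 comparisons 59%, 79.8%, 80%, 73.1%, 53.4%, 75.7%, 70.5% and 70.4% of all genes were called with that block. The numbers were not taken as pairing the samples, since not every same-numbered pair correlated above 0.1 in its deviations: they ran from -0.043 to 0.461 (median 0.0403, over 0.1 in 7 of 46 pairs). Pairs with different numbers had a median of -0.00576, over 0.1 in 2 of 184, and 40 of 96 best matches had the array's own number. Signals close to the detection limit, as for Cdkn1b with PMCA4b, limit the differences that can be seen.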
